A study of Mus musculus with 6 samples.

Results

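The 10 transcription factors Twist1, Twist2, Snai1, Snai2, Zeb1, Zeb2, Prrx1, Prrx2, Osr1 and Osr2 form 5 pairs of related genes that are expressed in embryonic mesenchyme or that drive epithelial cells towards a mesenchymal state. They were followed through every probe set that the array's annotation assigned to 1 of them, 24 of 34945 probe sets with a single gene, and they are 10 of 18193 genes measured. Twist1, Twist2, Snai1, Prrx2 and Osr1 had 1 probe set each, Snai2 and Osr2 had 2, Zeb1 had 4, Zeb2 had 5 and Prrx1 had 6. The arrays came from mouse embryos at 12.5 days post coitum (Theiler stage TS20, mixed background, males and females pooled) that carried both Shhtm1(EGFP/cre)Cjt, an allele with an EGFP and Cre fusion at the Shh locus, and Gt(ROSA)26Sortm3(CAG-EYFP)Hze, a yellow fluorescent reporter that Cre switches on. Both sorted groups carried the same alleles, so no array came from embryos without them. The genital tubercle, the embryonic outgrowth that becomes the penis or the clitoris, had been dissected, dissociated with trypsin and sorted into a reporter-positive fraction, labelled as urethral epithelium, and a reporter-negative fraction, which holds all other cells of the tubercle. Each group had 3 arrays, and the replicates 1, 2 and 3 of either group came from pools of 3, 5 and 2 littermates. The comparison asks which transcripts distinguish the epithelium that expresses Shh from the rest of the tubercle. The reporter stays on in descendants of cells that once expressed Shh, so the positive fraction need not express it at the time of sorting.

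Epithelial-mesenchymal transition, EMT, is the loss of epithelial junctions and polarity with gain of a migratory, mesenchymal form. Snai1 and Snai2 are zinc finger repressors and Zeb1 and Zeb2 are zinc finger homeodomain repressors, and both kinds bind E-boxes and silence epithelial genes such as Cdh1. Twist1 and Twist2 are basic helix-loop-helix factors that pair with E-proteins and are held back by Id proteins. Prrx1 and Prrx2 are paired-related homeobox factors of limb, craniofacial and other mesenchyme, and Osr1 and Osr2 are zinc finger factors of intermediate mesoderm, limb and palate.

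Promoter sequence was used for 6 of the 10 genes, Twist1, Twist2, Snai1, Zeb2, Prrx1 and Prrx2, as 9 windows in all. The windows came from RefSeq's annotation of GRCm38.p6, with 1 chromosome left out of the set. Each window was searched over the 250 bases before the annotated start, on both strands, for the E-box CANNTG, for its form CAGGTG that Snail and Zeb factors bind, which is itself one of the CANNTG sequences, for the homeobox core TAATTA and for the TATA sequence TATAAA. Snai1 held 1 E-box, and that E-box was of the CAGGTG form, written as its reverse complement on the printed strand. None of the 5 other genes held an E-box in its windows. Of the 32851 promoter windows of that length in the set, 66.2% held at least 1 and 17.2% held CAGGTG. Twist1 held 1 TATAAA, found in 12.4% of windows, and Prrx1 held 1 TAATTA, found in 4.84%. GC content was 70.0% for Snai1, 62.4% for Twist1 and 47.6% for Prrx1, against a median of 52.4% over the windows of the set. Such matches are descriptions of these letters alone. The 3 windows that held a searched motif are shown 5′ to 3′ on the gene's own strand, with the match in capitals (the E-box in Snai1, TATAAA in Twist1, TAATTA in Prrx1). They lie at chr2:167537945-167538194 on the plus strand for Snai1, chr12:33957421-33957670 on the plus strand for Twist1 and chr1:163313651-163313900 on the minus strand for Prrx1, and the matches begin 126, 126 and 173 bases before the start.
Snai1: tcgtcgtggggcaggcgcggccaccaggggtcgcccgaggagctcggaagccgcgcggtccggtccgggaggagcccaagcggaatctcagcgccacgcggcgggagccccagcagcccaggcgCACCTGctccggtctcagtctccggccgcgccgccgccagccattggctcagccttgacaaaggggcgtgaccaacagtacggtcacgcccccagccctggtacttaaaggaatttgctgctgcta
Twist1: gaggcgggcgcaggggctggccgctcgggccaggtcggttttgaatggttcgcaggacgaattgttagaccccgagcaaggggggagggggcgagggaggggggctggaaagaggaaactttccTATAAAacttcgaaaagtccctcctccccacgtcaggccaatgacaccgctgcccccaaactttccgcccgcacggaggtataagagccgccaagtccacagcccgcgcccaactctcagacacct
Prrx1: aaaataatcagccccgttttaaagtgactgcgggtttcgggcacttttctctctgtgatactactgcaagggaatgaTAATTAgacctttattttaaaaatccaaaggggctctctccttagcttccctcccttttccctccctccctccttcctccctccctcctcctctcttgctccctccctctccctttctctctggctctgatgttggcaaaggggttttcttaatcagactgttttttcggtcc

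Positive replicate 3 was far dimmer than the other arrays, and this bears on every value that follows. The median deposited signal of all probe sets other than controls was 0.28 in that array and 1.83 to 7 in the other 5, although control transcripts added at hybridization averaged 1884 in it and 1443 to 1841 in the others. A signal is called above background here where it exceeds every one of the 27 bacterial controls for which no transcript was added, read on its own array. That level was 1.12 to 8.28, and 23.01% of probe sets exceeded it in positive replicate 3 against 38.4% to 54.2% elsewhere. Ranked over probe sets, it correlated with each other array at a Spearman rho of 0.303 to 0.317. Signals were therefore quantile normalized before log2(signal + 16) was taken, and differences are given on that scale, which understates changes of dim genes. The sort itself could be read from Shh, at 8.49, 9.78 and 9.92 in positive replicates 1, 2 and 3 and 4.06, 4.63 and 4.41 in the negative ones (adjusted p = 0.0209, limma). The keratin gene Krt8 was called as well, 4.46 higher on the log2 scale (SE 0.49, limma's adjusted p = 0.0209).

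No probe set of the 10 factors passed an adjusted p of 0.05, in either direction. The fit covered all 45037 probe sets, of which 4 were called lower in the positive arrays (0.00888%) and 5 higher (0.0111%), so the background of calls was itself close to none. Adjusted p-values of the 24 factor probe sets lay between 0.797 and 0.983 (limma). Most factors nevertheless read lower in the positive arrays. Of the 24 probe sets 17 had a negative log2 difference, with a median of -0.33 against 0.0078 over all probe sets. With the brightest probe set taken for each gene, 9 of 10 genes were negative and the median was -0.94, against -0.0015 over the 18193 genes measured. At an unadjusted p under 0.05 limma counted 4 of the 24 as lower (16.7%), where 2.01% of all probe sets were, and these 4 were 2 probe sets of Prrx1, 1 of Prrx2 and 1 of Zeb2. In bulk samples fewer cells of a type and less RNA per cell cannot be told apart.

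**Figure D1:**
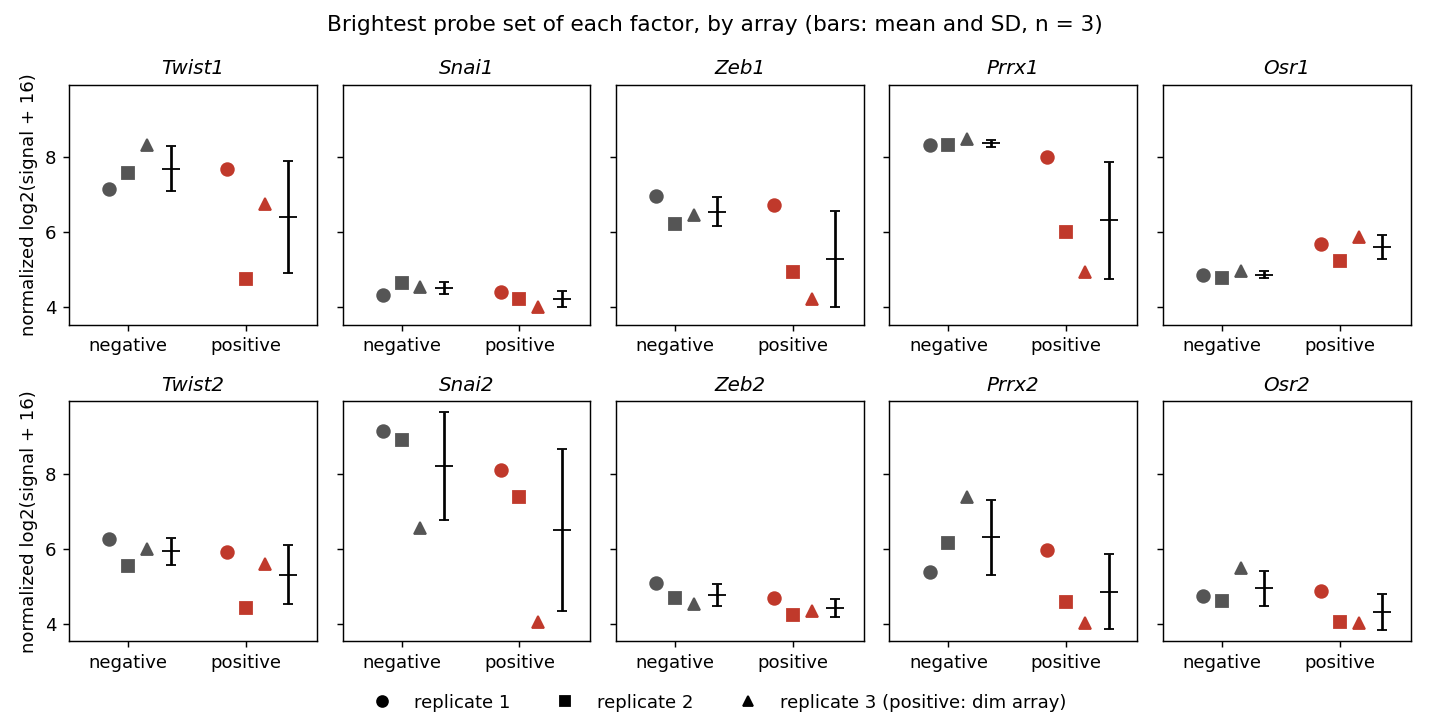
Normalized log2(signal + 16) of the brightest probe set of each of the 10 factors, with 1 symbol per array (3 reporter-negative in grey, 3 reporter-positive in red) and bars for the mean and SD. In positive replicate 1 the factors other than Osr1 lie -0.37 to 0.17 from their negative mean, and Osr1 is the only one of the 10 whose 3 positive arrays lie above all negative ones.

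Prrx1 and Prrx2, the paired-related homeobox genes, had among the largest differences. The brightest probe set of Prrx1 (1425528_at) had deposited signals of 509.81, 733.09 and 129.17 in the negative arrays, given throughout in the order of replicates 1, 2 and 3, and of 196.40, 31.52 and 1.14 in the positive arrays. After normalization the negative arrays lay close together at 8.31, 8.32 and 8.48, and the positive ones were spread over 7.99, 6.01 and 4.94. In its brightest probe set Prrx1 was the 1 factor whose positive arrays all lay below all negative arrays. This depended on scaling between arrays, since as deposited negative replicate 3 at 129.17 lay below positive replicate 1 at 196.40. The log2 difference of Prrx1, -2.05 (SE 0.66), did not pass (limma's adjusted p = 0.797). Over all probe sets 5.74% had their groups apart in this direction and 5.80% in the other, and among the 24 factor probe sets 3 were apart in this direction (12.5%), 2 of Prrx1 and 1 of Zeb2, and 1 in the other, of Osr1. The second of Prrx1, 1425527_at, was dim and above background in none of the positive arrays. Its negative mean of 4.55 did not exceed the lowest level that counts as above background in the positive arrays, averaging 4.57. Another Prrx1 probe set, 1439774_at, was bright like 1425528_at, at 7.20, 6.91 and 6.54 in the negative and 6.79, 5.01 and 4.03 in the positive arrays, a difference of -1.60 (SE 0.63). Its groups overlapped. The other 4 Prrx1 probe sets were dimmer and differed by -0.45 to 0.09. Of these, 1425526_a_at read 6.45 in positive replicate 1, above all 3 negative arrays at 5.07 to 5.55, so the probe sets of Prrx1 disagreed in that array. The single probe set of Prrx2 read 43.11, 127.36 and 54.44 as deposited in the negative arrays and 44.67, 5.66 and 0.05 in the positive ones. Its log2 difference was -1.44 (SE 0.60), with positive replicate 1 at 5.98, inside the negative range of 5.38 to 7.36.

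Twist1 and Twist2, the basic helix-loop-helix pair, were clearly above background in the negative arrays and in positive replicate 1. Twist1 read 217.18, 422.04 and 114.06 as deposited in the negative arrays, 40.5 to 56.2 times the background level of each array. In the positive arrays it read 155.69, 7.61 and 2.27, which is 34.8, 1.73 and 2.03 times background. On the normalized scale Twist1 stood at 7.16, 7.58 and 8.33 against 7.68, 4.77 and 6.76, so positive replicate 1 lay within the negative range and positive replicate 2 was the lowest. The log2 difference was -1.29 (SE 0.68). Without positive replicate 2 it was -0.47, and without positive replicate 1 it was -1.95. Twist2 had the same order among the positive arrays, at 5.91, 4.43 and 5.601, against 6.26, 5.55 and 6.004 in the negative ones, with a difference of -0.63 (SE 0.46) that was -0.19 without positive replicate 2 and -0.93 without positive replicate 1.

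The Snail pair differed in brightness and in what its probe sets showed. Snai1 was dim everywhere, with deposited signals of 7.07, 18.66 and 3.22 in the negative arrays and 5.54, 2.22 and 0.04 in the positive ones, 1.32 to 2.25 times background in the former and above it only in positive replicate 1 among the latter. Its log2 difference was -0.28 (SE 0.21). Snai2, also known as Slug, had the brightest probe set of all 10 factors, 1447643_x_at. The suffix _x marks probe sets in which some probes can also match other transcripts, so this value is uncertain. It read 893.00, 1103.36 and 28.77 as deposited in the negative and 210.18, 96.71 and 0.06 in the positive arrays. The 2 replicates numbered 3, from the pools of 2 littermates, were the lowest of their groups. Its log2 difference of -1.70 (SE 0.97) shrank to -0.47 without positive replicate 3. The other Snai2 probe set, 1418673_at, carries no such suffix. It stood at 5.71, 5.84 and 5.43 against 5.69, 4.57 and 4.30, a difference of -0.81 (SE 0.41) that was -0.58 without positive replicate 3.

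Zeb1 was bright in 1 probe set and near background in the others. The bright one, 1418926_at, read 186.34, 136.72 and 25.84 as deposited in negative arrays and 79.97, 9.65 and 0.14 in positive arrays. After normalization these became 6.97, 6.23 and 6.45 against 6.72, 4.93 and 4.22, a log2 difference of -1.26 (SE 0.60). It was -0.77 without positive replicate 3 and -1.998 without positive replicate 1. Positive replicate 1 again lay inside the negative range, and the 2 other positive arrays lay below it. The remaining 3 Zeb1 probe sets differed by 0.08 to 0.49, and for 2 of them the sign came from positive replicate 3: without it 1446127_at and 1443005_at were at -0.17 and -0.13. Zeb2 was dim throughout. Its brightest probe set, 1422748_at, read 30.72, 20.95 and 3.14 against 9.93, 2.30 and 0.44 as deposited, with a log2 difference of -0.35 (SE 0.27). Of its 5 probe sets 3 had a negative difference and 2 a positive one. Probe set 1456389_at was at -0.32 (SE 0.23). The positive ones were 1458941_at, at 0.02 (SE 0.20), and 1454200_at, at 0.15 (SE 0.09), which was above background on no array. Probe set 1434298_at of Zeb2 was above background in 3 of 3 negative arrays and in none of the positive ones, and its groups did not overlap, at 4.73, 4.44 and 4.50 against 4.28, 4.01 and 4.01. Its negative mean of 4.56 did not exceed the lowest level that counts as above background in the positive arrays, averaging 4.57, so no fold is given.

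Macrophages also express Zeb2, and most leukocyte markers had differences of the opposite sign. C1qa, C1qb and C1qc, the complement chains made by macrophages, had log2 differences of 0.91, 1.32 and 0.45, and all 3 had higher values in every positive array than in any negative one. Ptprc, the pan-leukocyte phosphatase, was at -0.12. Of 8 measured leukocyte markers 7 were positive, none called in the 6 arrays, with a median of 0.38 (in the 5 arrays without positive replicate 3 the receptor gene Csf1r was called, at 2.07, adjusted p = 0.0408, limma), and their summed deposited signal was 5.24 to 60.1 in negative and 4.76 to 126 in positive arrays. Their part in the Zeb2 values was not tested.

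Osr1 was the exception among the 10. Its deposited signals were 21.78, 24.74 and 5.69 in the negative arrays and 34.34, 14.23 and 1.77 in the positive ones. Normalized values were 4.86, 4.78 and 4.98 against 5.70, 5.25 and 5.86, so all 3 positive arrays lay above all 3 negative arrays. The difference of 0.73 (SE 0.34) did not pass (limma's adjusted p = 0.797). Its direction depended on scaling between arrays, since with unscaled signals it was -0.10, beside a median of -0.19 over all probe sets. Relative to the background level of each array, Osr1 stood at 7.68, 3.23 and 1.58 times in the positive arrays and 4.06, 2.99 and 2.80 times in the negative ones, so on that scale positive replicate 3 was the lowest. Osr2 went with the other factors. Its brighter probe set read 18.47, 17.12 and 10.13 against 13.78, 0.48 and 0.04 as deposited, with a log2 difference of -0.63 (SE 0.34), and its other probe set was above background on no array.

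**Figure D2:**
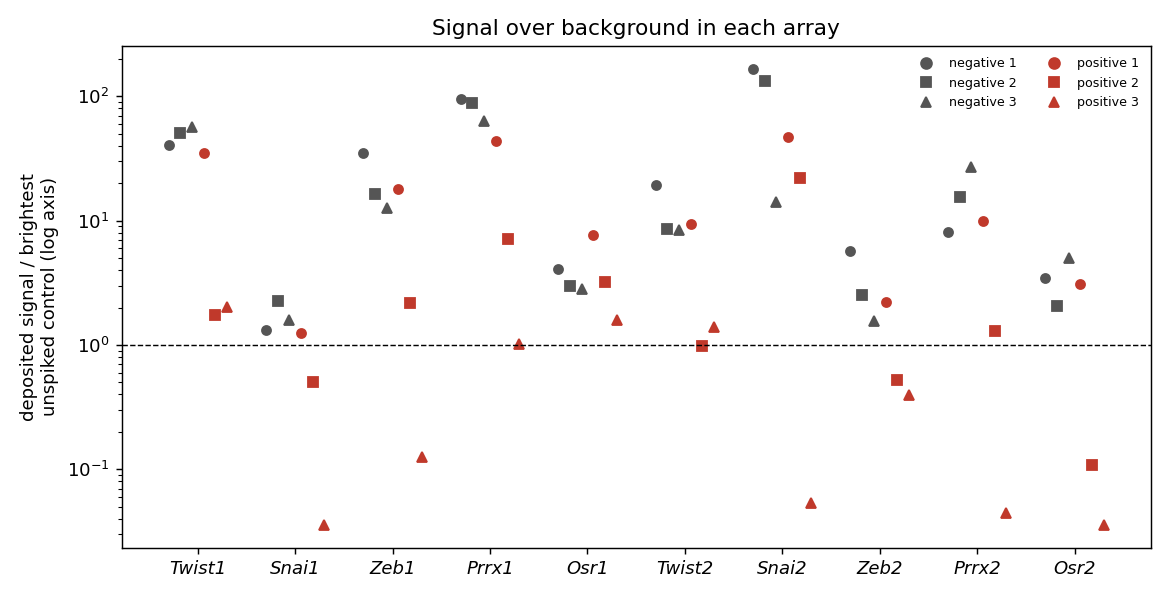
Deposited signal of the brightest probe set of each factor divided by the brightest unspiked control of the same array (log axis, dashed line at 1), with 1 symbol per array. All 10 factors exceed background in all 3 negative arrays and in positive replicate 1, while 6 exceed it in positive replicate 2 and 4 in positive replicate 3.

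**Figure D3:**
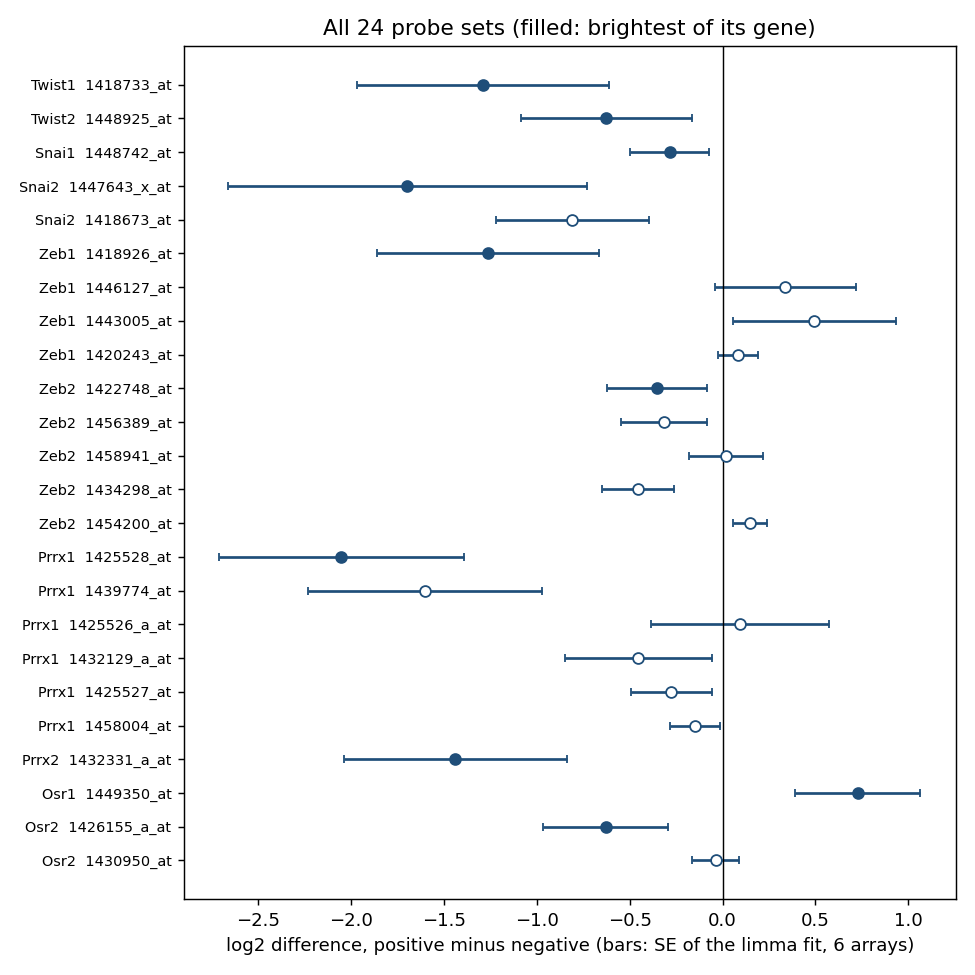
Log2 difference (positive minus negative, 6 arrays) of each of the 24 probe sets with the SE of the fit. Filled points mark the brightest probe set of a gene, and 17 of 24 points lie below 0, while 3 of 4 Zeb1 probe sets lie above it.

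The 3 positive arrays did not treat the factors alike. Against the negative mean, the 10 genes had medians of -0.07, -1.20 and -0.93 in positive replicates 1, 2 and 3. In positive replicate 1 the 9 factors other than Osr1 lay between -0.37 and 0.17, whereas in positive replicate 2 they lay between -2.92 and -0.28 and in replicate 3 between -4.15 and -0.34. Only Prrx1 was below all negative arrays in positive replicate 1, against 8 of 10 factors in replicate 2 and 8 in replicate 3. Over all 18193 genes the shares below all negative arrays were 24.1%, 27.4% and 41.6% in positive replicates 1, 2 and 3. General mesenchyme markers ran in parallel. Of 8 such markers 7 were measured (Col1a1, Col1a2, Col3a1, Pdgfra, Cdh11, Lum and Dcn), and their median against the negative mean was -0.03, -2.90 and -2.35 in positive replicates 1, 2 and 3. Their summed deposited signal was 633 to 4052 in the negative arrays and 1691, 72.9 and 6.65 in the positive ones. Col1a2, a fibrillar collagen, read 358.42, 22.46 and 1.80 in the positive arrays. The median over 7 urethral epithelium markers was 2.53 above the negative mean in positive replicate 1, lower than the 3.81 and 3.78 of replicates 2 and 3. Shh and Krt8 were likewise lowest in positive replicate 1 among the positive arrays. How far mesenchymal cells in the sorted fraction set these values was not tested.

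**Figure D4:**
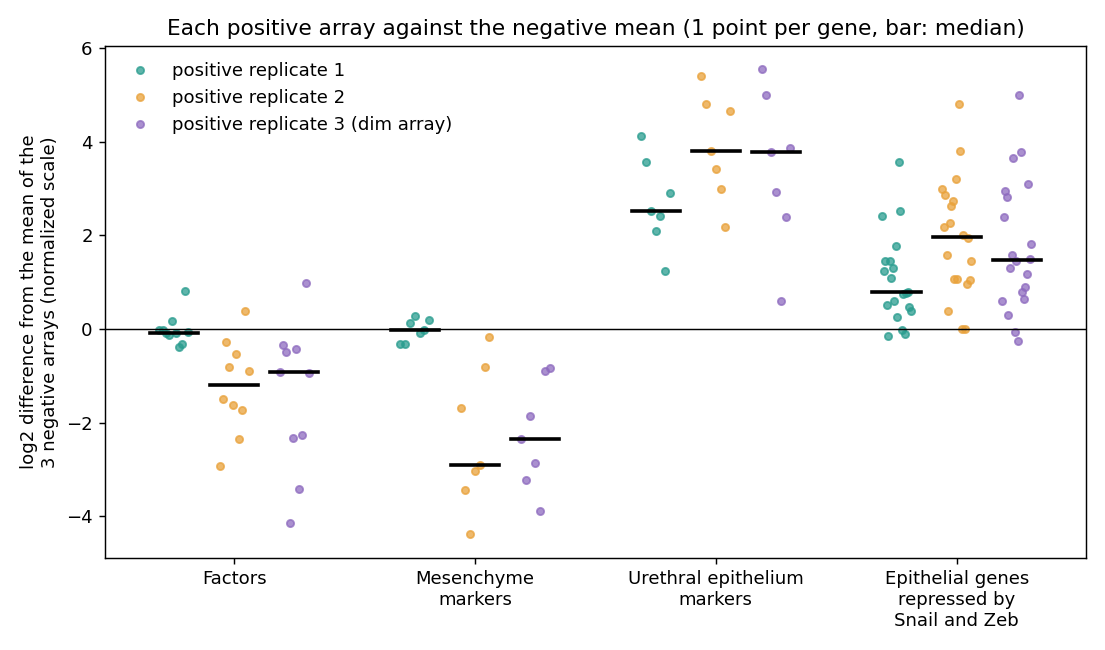
Log2 difference of each positive array from the mean of the 3 negative arrays, with 1 point per gene and a bar at the median, for the 10 factors, 7 mesenchyme markers, 7 urethral epithelium markers and 20 epithelial genes known as targets of Snail and Zeb factors. The factors and the mesenchyme markers sit near 0 in positive replicate 1 (medians -0.07 and -0.03) and below it in the other 2, while both epithelial groups are above 0 at the median in all 3. Krt8, Krt18, Cdh1 and Epcam belong to both epithelial groups.

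Leaving out single arrays changed how far the groups stood apart but brought no factor past the threshold. With all 6 arrays 1 of 10 factors, Prrx1, had all positive arrays below all negative ones in its brightest probe set. Without positive replicate 1 this held for 7 of 10, where 13.5% of all probe sets did so. Without negative replicates 1, 2 and 3 in turn it held for 3, 2 and 3 factors, beside 9.50%, 8.99% and 12.3% of all probe sets. Fewer arrays make such a separation easier by construction. The factor counts are by brightest probe set and the shares are over all probe sets, so the 2 are unlike measures. By brightest probe set, 1129 of 18193 genes were apart in this direction with all 6 arrays. That count was not made with 1 array left out. The lowest adjusted p of any factor probe set was 0.150 without positive replicate 1 (limma), and 0.133 to 0.966 over 15 alternatives. Without the dim array, positive replicate 3, 6 probe sets of the table were called lower (0.0133%) and 24 higher (0.0533%), none of them a factor. In those 5 arrays the brightest probe sets of Twist1 and Prrx1 differed by -1.54 (SE 0.69) and -1.39 (SE 0.49), Osr1 by 0.65 (SE 0.27), and 20 of 24 probe sets were negative.

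Related factors were compared by the difference between their log2 differences, tested over arrays with a two-sided exact permutation test, for which 3 against 3 arrays allow no p below 0.1. Each gene entered through its brightest probe set. For Snai2 this was the uncertain 1447643_x_at, at -1.70, while its other probe set was at -0.81 and Snai1 at -0.28, so the Snail value depends on that choice. Osr1 minus Osr2 gave 1.36 (exact p = 0.1, adjusted p = 0.4 over 5 pairs), the smallest p possible before adjustment, with all positive arrays on 1 side. Snai1 minus Snai2 gave 1.41, Zeb1 minus Zeb2 -0.91, Twist1 minus Twist2 -0.66 and Prrx1 minus Prrx2 -0.61, each with an exact p of 0.4. No pair was thus shown to differ, and with 3 arrays a group none could have been. Single arrays moved these values. Leaving out 1 array at a time gave 0.27 (without positive replicate 3) to 2.28 (without negative replicate 3) for the Snail pair and -1.52 (without positive replicate 1) to -0.42 (without positive replicate 3) for the Zeb pair. The same gave -1.07 (without negative replicate 3) to -0.24 (without negative replicate 1) for the Prrx pair, -1.07 (without negative replicate 1) to -0.28 (without positive replicate 2) for the Twist pair and 1.18 to 1.599 for the Osr pair.

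Among the genes of proteins that work with these factors none was called. Among 7 dimer partners and Id inhibitors of Twist factors 6 were negative, with a median of -0.54. The E-proteins Tcf12, Tcf3 and Tcf4 differed by -0.65, -0.57 and -0.35, and the inhibitor Id2 by -1.36 (SE 0.79). Over the 5 arrays without positive replicate 3 the median of this group was -0.09, with Tcf12, Tcf3 and Tcf4 at -0.15, -0.24 and -0.09. There Id2 was at -0.18, and the other inhibitors Id1, Id3 and Id4 were positive at 0.62, 0.38 and 0.52. Of 10 corepressors used by Snail and Zeb factors 8 were negative (median -0.31, none called, and -0.02 in the 5 arrays), with Ctbp1 at -1.27 (SE 0.75) and Ctbp2 at -0.62, which were -0.23 and 0.13 in the 5 arrays. Smarca4, next in size, went the other way at 0.60 (SE 0.48), and was at 0.21 in the 5 arrays. The 14 measured relatives of the factors were evenly divided, 7 lower and 7 higher with none called, and their median was 0.0073. Hand2, a helix-loop-helix factor of limb and tubercle mesenchyme, had the largest difference among them at -1.27 (SE 0.53), and Tcf15 was at 0.69, which was -0.06 without positive replicate 3. Of 9 TGF-beta ligands, receptors and Smads 6 were negative (median -0.27, none called), but the median was 0.13 without positive replicate 3, while the ligand Tgfb2 was at 1.03 (SE 0.46) with higher values in all positive arrays.

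Genes at the other end of the switch read higher in the positive arrays. All 20 measured epithelial genes that Snail and Zeb factors are known to repress had a positive log2 difference, with a median of 1.66, and 15 of them had all positive arrays above all negative ones, where 5.80% of all probe sets did. Without positive replicate 3 Muc1, above background on no array, and Marveld3 were at -0.0077 and -0.06. Krt8 was the only one called in the 6 arrays. Krt18, its keratin partner, differed by 3.37 (SE 0.48, adjusted p = 0.0657, limma), the claudin Cldn7 by 2.57 (SE 0.53) and the splicing regulator Esrp1 by 2.42 (SE 0.46). Cdh1 is the epithelial cadherin and classical target. It stood at 7.04, 7.60 and 5.20 in positive replicates 1, 2 and 3 against 4.58, 4.56 and 4.70 in negative ones. Positive replicate 1 thus combined high Cdh1 with most factors inside their negative range, while Prrx1 lay below that range and Osr1 above it. Each array is a bulk sample, and whether the same cells held Cdh1 and the factors was not tested. In the 5 arrays without positive replicate 3, Krt8, Krt18, Cdh1 and Cldn3 were called higher, 4 of 20 (limma, lowest adjusted p = 0.00206, highest 0.0395). Among 10 transcription factors that maintain the epithelial state 8 were positive with a median of 0.32 and none was called. Klf5 differed by 2.41 (SE 0.51), Grhl2 by 1.68 (SE 0.46) and Grhl3 by 1.15 (SE 0.46), and in the 5 arrays Klf5 and Grhl3 were called higher (adjusted p = 0.0466 and 0.0153, limma).

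Mesenchymal effectors of EMT, meaning matrix, adhesion and receptor genes, had mostly negative differences like the factors, again without a call. Of 18 measured 15 were negative with a median of -1.03. Without positive replicate 3 the median was -0.72 and fewer of the 18 were negative. Col1a2 differed by -2.34 (SE 0.70), the mesenchymal cadherin Cdh11 by -2.29 (SE 0.79), Col3a1 by -2.05 (SE 0.84) and the growth factor receptor Pdgfra by -1.88 (SE 0.78). Fibronectin, Fn1, went the other way at 0.74 (SE 0.37) with every positive array above every negative one, and the matrix protein gene Sparc was at 0.68 (SE 0.48). Across positive replicates 1, 2 and 3 the median of this group against the negative mean was 0.05, -1.36 and -1.92, the same division between replicate 1 and the others as in the factors. All measured mesenchyme markers given above also belong to this group, so the 2 lists overlap and are not separate observations.

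Across the 6 arrays the factors other than Osr1 all correlated positively with each other, the lowest at 0.12 for Twist1 with Snai2. Over 45 pairs of genes Pearson's r of normalized signal had a median of 0.65 and ran from -0.70 for Snai1 with Osr1 to 0.96 for Zeb1 with Prrx1. All 9 pairs with Osr1 were negative. These are descriptions over 6 arrays that share the group difference and the dim array. Among 10905 other genes brighter than the median, those most like Prrx1 were Septin11, a cytoskeletal septin, Crabp2 and Rdh10, which bind and make retinoids, and Ubtd2, at r of 0.995 to 0.997. Crabp2 differed by -2.54 and Rdh10 by -1.21 between the groups. For the brightest Snai2 probe set the nearest were Rps6ka3, Mbtps2, Kiz and Rc3h1, at 0.996 to 0.998.

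Other cell types that the fractions could hold had the following levels. Of 7 endothelial markers none was above background in all negative arrays, Pecam1 and Tie1 were above it on no array, and the median difference was 0.09, with summed deposited signals of 5.97 to 54.1 in negative and 1.70 to 48.1 in positive arrays. Of 6 glial and neural crest markers 4 were measured, with a median of -0.0040 and sums of 13.9 to 80.7 in negative and 1.23 to 35.7 in positive arrays. Ngfr, a receptor of neural crest and mesenchyme, was at -1.01 (SE 0.30), and Sox10 and Foxd3, which define neural crest, were at -0.04 and 0.03. The other measured marker, Erbb3, went the other way from Ngfr. Without positive replicate 3 Erbb3 was at 0.89 (SE 0.31), Ngfr at -1.03 (SE 0.28), Sox10 at -0.27 and Foxd3 at 0.11. Of 5 muscle markers none was above background in all negative arrays, though Myog and Actc1 were at 5.00 and 8.66 times background in negative replicate 1, and the median was 0.07 and sums of 5.41 to 92.0 in negative and 4.82 to 23.4 in positive arrays. Of 6 erythroid markers 5 were measured, none was called in the 6 arrays (Slc4a1 and Hbb-bh1 were called lower without positive replicate 3, at adjusted p = 0.00669 and 0.0227, limma), all 5 had every positive array below every negative one, and their median was -2.33, with sums of 3969 to 6115 in negative and 10.6 to 1422 in positive arrays. The part of these cells in the factor values was not tested.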

How the data were processed

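Total RNA of sorted genital tubercle cells was biotin-labelled for Affymetrix mouse arrays, per the labels' protocols. The authors deposited an intensity for every probe set of each array, and from the range of values these appear linear and unscaled. The submitters' processing notes name GCOS on 1 of 6 samples. The summarization method was not given in the sources used here.

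After 64 control probe sets were set aside, 45037 were quantile normalized, transformed to log2(signal + 16) and fitted in limma 3.58.1 (R 4.3.3) by lmFit and by eBayes with trend, without a filter, with Benjamini-Hochberg adjustment at 0.05. These steps were tested on simulated data. Where 1 value per gene was needed, the probe set with the highest mean was used. Symbols were updated through gene identifiers of RefSeq GRCm38.p6, which matched 34741 of 34945. The p-values measure the spread between pools and arrays together, and the number of arrays limits precision.

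All probe sets of the members were reported. Of each other list, up to 4 genes with the largest difference were named, plus Shh, Krt8, Cdh1 and the 4 genes most correlated with each of the 2 brightest members. Genes given beyond this rule (C1qc, Ptprc, Tcf4, Id1, Id4, Cldn3, Muc1, Marveld3, Fn1, Sparc and the defining markers of other cell types) were picked after their values were seen. Members, lists and tests were chosen with earlier results of these data known.

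Alternatives were no scaling, median scaling, pseudocounts of 4 and 64, a filter at the 30th percentile, gene level, array weights, a block for pool size and leaving out each array. Deviations of same-numbered arrays from their group means correlated at 0.115, 0.0297 and 0.102, and the labels do not state a shared litter, so no pairing was used in the main comparison. Same-numbered arrays share a pool size and carry consecutive numbers in their titles, so they may be fractions of the same pool. These correlations over all probe sets, many of them near background, cannot decide it.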

Additional observations from a re-analysis of the deposited data

How the results depend on the processing

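Under all 15 alternatives no factor probe set passed the threshold (limma). This includes pool size as a replicate block, with 0 factor probe sets called and the median of the factor probe sets at -0.33. Over the whole table the block left 0 probe sets called lower and 4 higher, against 4 and 5 in the main fit. With the block the SE of the brightest Snai2 probe set fell from 0.97 to 0.46, and that of Prrx2 rose from 0.60 to 0.65. The median was -0.58 with signals as deposited, where that of all probe sets was -0.19, -0.71 with a pseudocount of 4 and -0.94 at gene level, where only the brightest probe sets enter. It was closer to 0 with a pseudocount of 64, at -0.11, and with median scaling, at -0.24. Leaving out 1 array gave -0.46 to -0.26. The count of factors with positive arrays below negative ones was 0 with signals as deposited and 1 to 7 without 1 array. Without 1 array the share of all probe sets was 8.99% to 13.5% where it was computed. None was computed for signals as deposited or without positive replicate 2 or 3. Array weights combined with the block, and the alternatives for the paralogs, were added after seeing the data, and the 5 paralog differences kept their sign in all 10 of them.

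Of the brightest probe sets only that of Osr1 changed sign, to -0.10 with signals as deposited. There the sign also changed for Prrx1 1425526_a_at (-0.52), Zeb1 1443005_at and 1446127_at (-0.21 and -0.32) and Zeb2 1458941_at (-0.20). Further changes were all close to 0: Osr2 1430950_at at 0.0022 with median scaling, Zeb2 1458941_at at -0.0028 with a pseudocount of 4 and -0.022 with array weights, with or without the block, and Zeb1 1446127_at at -0.049 with array weights and -0.013 with the block added. Without 1 array Prrx1 1425526_a_at ranged from -0.43 to 0.56, Zeb1 1443005_at from -0.13 to 0.92, Zeb1 1446127_at from -0.17 to 0.65, Zeb2 1458941_at from -0.094 to 0.17 and Osr2 1430950_at from -0.15 to 0.032. The causes were not tested.

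Signal limits these values: 3 of 24 factor probe sets were above background on no array and 8 in positive replicate 3. A missed threshold therefore does not show that a factor was equal in both fractions.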
